A study of Laxus oneistus with 16 samples.

Results

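The marine nematode *Laxus oneistus* was compared between full air saturation and anoxia with sulfide. The comparison used the 6 libraries of worms kept under oxic conditions (O) and the 3 libraries of worms kept in anoxic water with sulfide (AS), 9 of the 16 libraries of the series. Every library came from a batch of 50 pooled whole worms incubated for 24 h in the dark. O worms sat in open vials submerged in an aquarium bubbled with air, and AS worms sat in vials that were prepared without oxygen and received sulfide to 11 µM according to the labels. The study's main text gives the sulfide level as an upper limit, which is higher than that dose, and its supplementary legends also state higher levels. The main text gives O as full air saturation, whereas a supplementary legend gives a lower saturation for oxic seawater after 24 h. The other libraries came from hypoxic worms (H, n = 3) and from anoxic worms without added sulfide (A, n = 4), and they entered the same fit. All worms were wild animals collected with their bacterial coat, adults where the study names a stage, and their sex is not given, and reads of the bacterium were removed before the worm transcriptome was assembled. Oxygen and sulfide differed together between O and AS, so their parts cannot be told apart in this comparison. Of the 27984 assembled transcripts, 17407 had at least 10 reads in at least 3 libraries of either group and were tested. A further 1031 met that minimum but had fewer than 10 reads in total outside O replicates 2, 3 and 5 and A replicates 3 and 5, and they were left out by the rule that defined the comparison.

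*L. oneistus* lives in shallow sand and carries a coat of the sulfur-oxidizing bacterium *Candidatus* Thiosymbion oneisti. The worm moves between oxygenated upper layers and deeper sand that holds sulfide and no oxygen. Sulfide blocks cytochrome c oxidase, the last complex of the mitochondrial respiratory chain, and animals remove it by oxidizing it in mitochondria, where sulfurtransferases of the rhodanese family take part. Without oxygen many nematodes run part of the citric acid cycle backwards, from malate to succinate and on to propionate. Chaperones, catalases and peroxiredoxins are the usual stress proteins of such transitions. Lysozymes and lectins act on bacterial surfaces, which matters in an animal that carries bacteria on its cuticle.

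The libraries held 9032241 to 18627740 estimated reads in O and 13865529 to 14936051 in AS. Levels are given as CPM, the scaled read count of a transcript relative to all reads on tested transcripts after trimmed-mean (TMM) scaling. CPM does not correct for transcript length, so levels were compared between libraries and not between genes. The SD of the log2 level of a transcript over libraries had a median of 0.38 in O and 0.31 in AS, and the biological coefficient of variation was 0.374 in O and 0.261 in AS. Within O it was 0.430 over replicates 1, 4 and 6 and 0.239 over replicates 2, 3 and 5. Transcripts left out by the rule took 0.575 to 1.28% of the reads in O replicates 2, 3 and 5 and at most 0.00424% in the other O libraries and in AS. The cytochrome oxidase subunit transcript *ctc-1*, whose best database match is *L. oneistus* itself, was at 643 to 1064 CPM in O and 624 to 1026 CPM in AS. After thinning to the smallest library, 15417 to 16807 tested transcripts (median 16196.5) had at least 10 reads in O and 15674 to 15865 (median 15716) in AS. The transcriptome was assembled without AS reads, so transcripts found mainly in AS may be missing from it. Libraries of O lay at a mean Euclidean distance of 125 on the log2 CPM scale from each other, AS libraries at 89.5, and O libraries from AS libraries at 121, within the 71.1 to 182 spanned by pairs of O libraries. Worms came from several field trips, and replicate incubations were started together. Which batch came from which trip is not given in the sources used here, so p-values measure the spread between these batches.

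Between AS and O, 137 transcripts differed at a false discovery rate (FDR, Benjamini-Hochberg adjusted p of the edgeR quasi-likelihood test over all tested transcripts) of at most 0.05 and at least 1.5-fold, 0.787% of those tested. Of these 84 were higher in AS, 0.483% of those tested, and 53 were lower, 0.304%. The rises had a median log2 fold change of 1.06 and reached 2.27, and the falls had a median of -1.20 and reached -5.16. In 136 of the 137 the AS and O libraries did not overlap, against 6.64% of all tested transcripts, and the call itself favours such transcripts. The exception was TRINITY_DN47972_c0_g1_i3_4dedup, singled out after its values were seen, in which AS replicate 1 reached the lowest O library at 55.9 CPM. The called transcripts varied less in O than tested transcripts in general, with a median SD of 0.25 on the log2 scale, but the call itself favours a small spread. Only 3 of them had more than 2 times higher means in O replicates 2, 3 and 5 than in replicates 1, 4 and 6. That held for 5.67% of all tested transcripts, and the call also favours transcripts without such a difference. In bulk worm RNA, fewer cells of a type and less RNA per cell cannot be told apart. Transcripts called higher took 0.545 to 0.661% of the reads in O and 1.13 to 1.46% in AS, a difference that follows from how they were chosen. The count fell to 24 without AS replicate 3 and to 39 without AS replicate 1, and it rose to 271 without O replicate 6. It was 17 in the 11 libraries other than O replicates 2, 3 and 5 and A replicates 3 and 5. The study itself, at the same FDR and fold limits, reported no differential expression of O against AS, A or H. It does not name its test, and its read filter differed from the one used here. Why the counts differ was not tested.

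**Figure D1:**
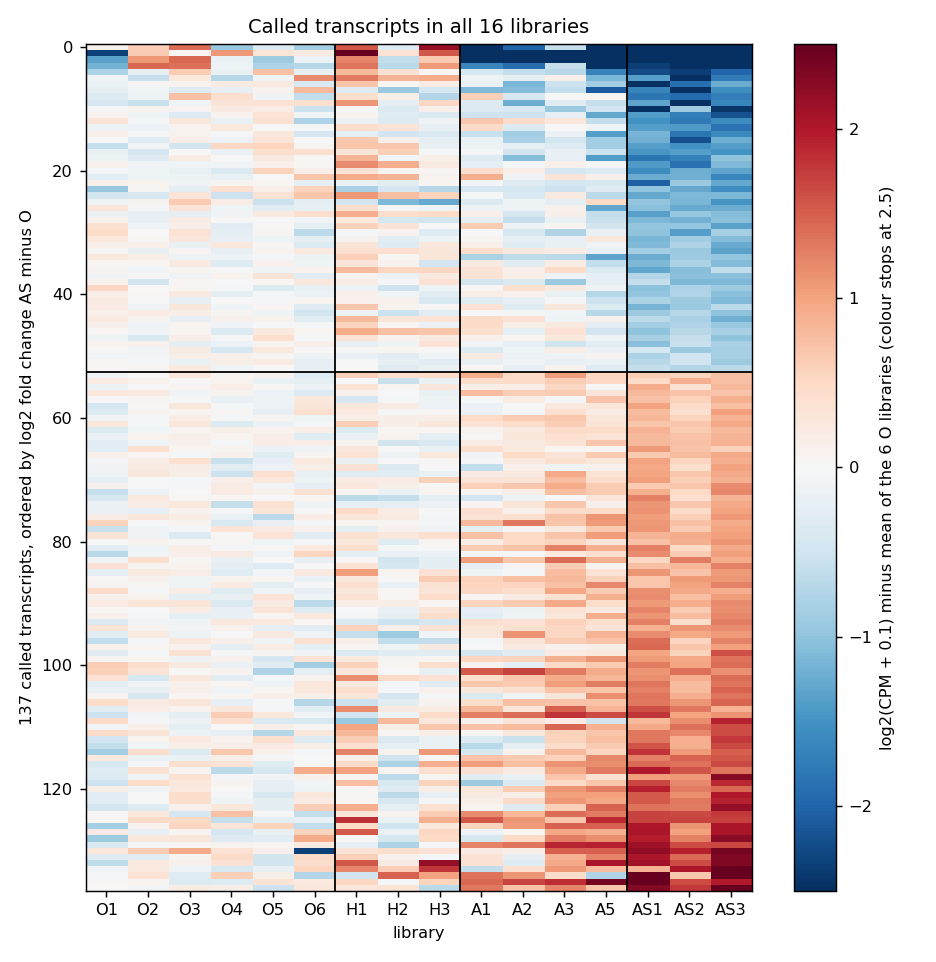
Level of each of the 137 called transcripts (rows, ordered by log2 fold change between AS and O) in the 16 libraries (columns), as log2(CPM + 0.1) minus the mean of the 6 O libraries, with blue for lower and red for higher. The upper 53 rows, lower in AS, are blue in the 3 AS libraries, and the lower 84 rows are red there. The O columns are mostly pale because each row is centred on O, with single dark cells in O replicates 1 and 6.

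The levels of these transcripts in the other 2 conditions are set beside the comparison as description, since A, H and AS share the O libraries and the transcripts were chosen for the AS difference. For the 84 transcripts higher in AS the median log2 difference from O was 1.06 in AS, 0.51 in A and 0.07 in H. For the 53 lower in AS it was -1.20 in AS, -0.19 in A and 0.16 in H. Over all tested transcripts the A and H medians were -0.01 and -0.02. In their own tests over the same transcripts, 29 differed between A and O (0.167%), 25 higher in A (0.144%) and 4 lower (0.023%), and DESeq2 called 81. Between H and O 0 differed by the edgeR quasi-likelihood test (smallest FDR 0.224), with 1672 at an unadjusted p under 0.05 and 46 by DESeq2 at the same limits. Between AS and A 6 differed (0.0345%), all lower in AS, against 332 called by DESeq2. The study reported no significant difference between A and AS.

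Of the 137 called transcripts, 3 carried an entry in the annotation tables used, and all 3 were higher in AS. They are a lysozyme-like protein, the transthyretin-related *ttr-35*, and a transcript that the study enters as "no similarity". The 53 transcripts that fell included none with an entry. The annotation covered 171 tested transcripts that the study listed among its most abundant transcripts or proteins, and 61 more tested transcripts from a shortened table. Of these 61, 0 were called (smallest FDR 0.187), and their median log2 fold change was -0.67. They are the tested part of 446 annotated loci in that shortened table, so this median does not stand for annotated transcripts in general. The assembly kept only transcripts with some functional annotation, so the other 134 lack an entry in the tables as used here and not an annotation as such. The 171 were chosen by the study for abundance over libraries that include these, and they are grouped here into 22 lists by gene name. Of the 171, 3 were called (background 0.787%), 101 lay above 0 and 70 below, and the median log2 fold change was 0.07, against -0.02 over all tested transcripts. At an unadjusted p under 0.05 there were 15 higher and 16 lower in AS, 31 of 171, against 13.9% of all tested transcripts (6.31% higher, 7.57% lower). The groups did not overlap in 10 members, 5 with AS above O and 5 below, against 3.15% and 3.49% of all tested transcripts.

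**Figure D2:**
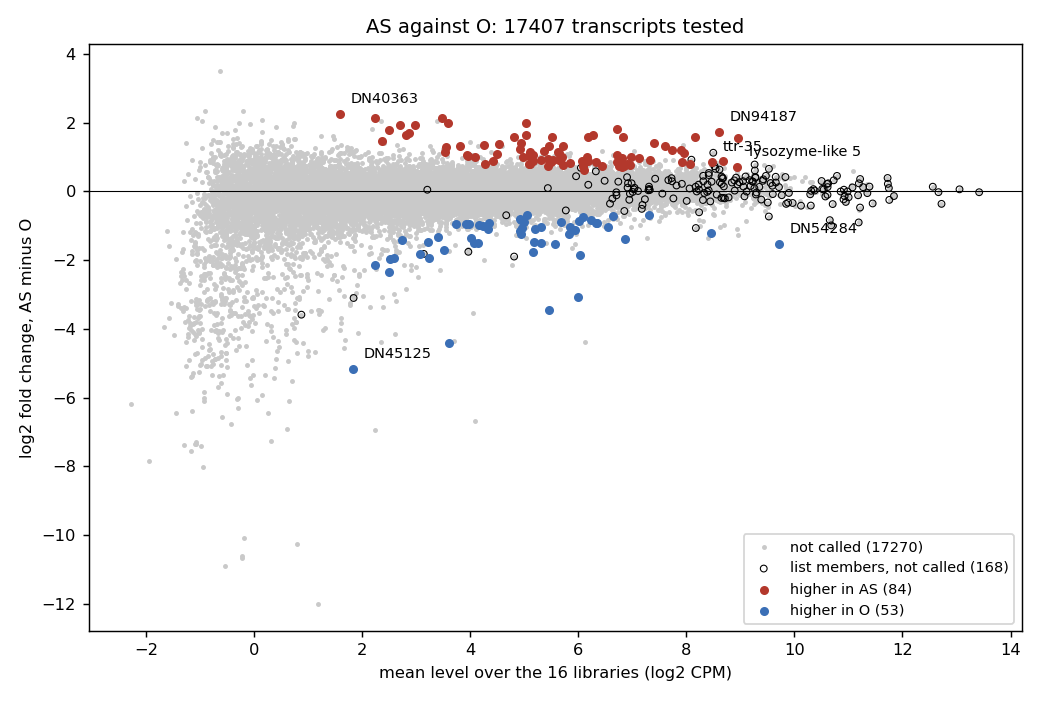
Log2 fold change between AS and O (vertical) against the mean level over the 16 libraries in log2 CPM (horizontal) for the 17407 tested transcripts. Red points are the 84 transcripts called higher in AS, blue points the 53 called lower, and open circles the 168 list members that were not called, which sit mostly at the right and near 0.

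Lysozymes cut the peptidoglycan wall of bacteria, and the lysozyme-like protein 5 transcript (TRINITY_DN58251_c0_g1_i1_9dedup) was 2.95-fold higher in AS. Its level was 269, 432, 348, 212, 251 and 631 CPM in O replicates 1 to 6 and 1325, 995 and 844 CPM in AS replicates 1 to 3. All AS libraries lay above all O libraries, and O replicate 6 was the highest of its group. The means were 357 ± 156 CPM (SD, n = 6) in O and 1055 ± 246 CPM (SD, n = 3) in AS, a log2 fold change of 1.56 (SE 0.31, edgeR FDR 0.018). A stood at 573 ± 200 CPM (SD, n = 4) and H at 484 ± 164 CPM (SD, n = 3), and the direct difference between AS and A had an FDR of 0.286. The call was lost without AS replicate 1 (FDR 0.146), without AS replicate 3 (FDR 0.0718), or in the 11 libraries named above (FDR 0.163). The other immune effector, the galactoside-binding lectin *lec-3*, was 923 to 1258 CPM in O and 712 to 920 CPM in AS. These ranges did not overlap, and its log2 fold change of -0.34 (SE 0.15) had an edgeR FDR of 0.319.

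Transthyretin-related proteins are a large family of small secreted nematode proteins, and the *ttr-35* transcript (TRINITY_DN86074_c0_g1_i2_9dedup) was 1.83-fold higher in AS. It was at 261, 405, 350, 354, 348 and 359 CPM in O and at 818, 458 and 619 CPM in AS. Apart from O replicate 1 the O libraries were close together, and the AS libraries were all above them. The log2 fold change was 0.87 (SE 0.19, edgeR FDR 0.0358). A was at 331 ± 72.3 CPM (SD, n = 4), near the O mean of 346 ± 46.8 CPM (SD, n = 6), and H was at 245 ± 41.1 CPM (SD, n = 3). The AS to A difference of 0.93 (SE 0.21) had an FDR of 0.0894. The call was lost under 9 of 21 alternatives, among them leaving out AS replicate 1 (log2 fold change 0.64, FDR 0.288) or AS replicate 3 (FDR 0.171).

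The transcript TRINITY_DN94187_c0_g1_i11_9dedup, which the study enters as "no similarity", was 3.34-fold higher in AS. The study's filter kept only transcripts with a match to a eukaryotic protein, so the entry does not mean that no match exists. It was at 305, 230, 280, 200, 233 and 390 CPM in O and at 1090, 544 and 1102 CPM in AS, again without overlap. The log2 fold change was 1.74 (SE 0.32, edgeR FDR 0.0147), and it was not called without AS replicate 1 (FDR 0.0926), without AS replicate 3 (FDR 0.13) or in the 11 libraries (FDR 0.162). H replicate 1 reached 771 CPM, within the AS range, and the other H libraries were at 242 and 379 CPM.

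**Figure D3:**
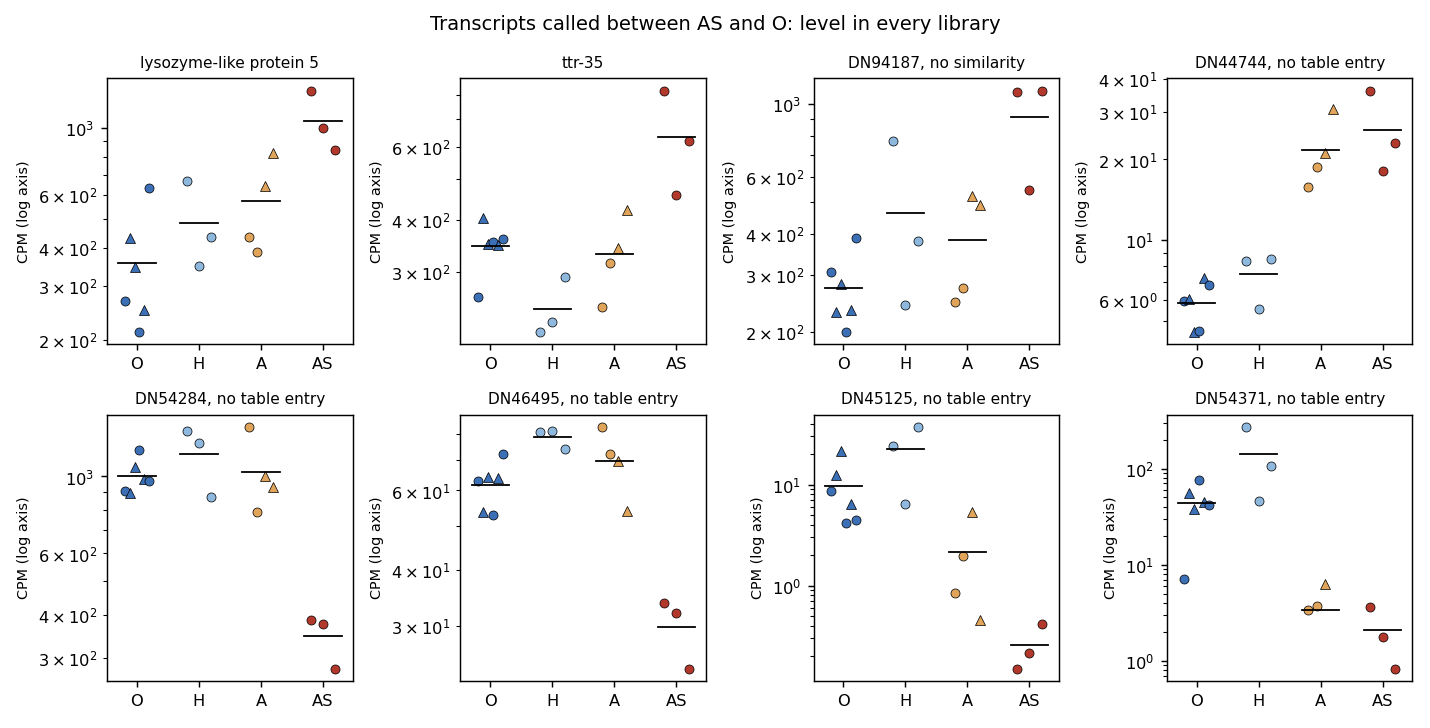
Level in CPM (log axis) of 8 called transcripts in every library of O, H, A and AS. Points are libraries, bars are group means, and triangles are O replicates 2, 3 and 5 and A replicates 3 and 5. The first 4 panels were higher in AS than in every O library, and the last 4 were lower than in every O library.

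Among the called transcripts without an entry and without overlap, the largest rises were TRINITY_DN40363_c0_g1_i1_4dedup and TRINITY_DN44744_c0_g2_i5_4dedup. TRINITY_DN40363_c0_g1_i1_4dedup rose 4.81-fold, from 1.20 to 2.16 CPM in O to 9.11, 6.26 and 10.8 CPM in AS (log2 fold change 2.27, SE 0.32, edgeR FDR 0.00217). TRINITY_DN44744_c0_g2_i5_4dedup rose 4.40-fold, from 4.55 to 7.22 CPM in O to 36.2, 18.1 and 23.0 CPM in AS (log2 fold change 2.14, SE 0.25, edgeR FDR 0.000723). The second was also high in A, at 15.8, 18.8, 21.1 and 30.7 CPM, and its own test of A against O gave a log2 difference of 1.88 (FDR 0.0026). The first was at 2.94 to 4.57 CPM in A, between O and AS. The call of TRINITY_DN44744_c0_g2_i5_4dedup held in all 21 alternatives, and that of TRINITY_DN40363_c0_g1_i1_4dedup was lost in the 11 libraries (FDR 0.0831).

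The largest falls of this kind were TRINITY_DN45125_c1_g1_i2_4dedup and TRINITY_DN54371_c3_g1_i3_4dedup. TRINITY_DN45125_c1_g1_i2_4dedup had 8.69, 12.5, 21.3, 4.15, 6.39 and 4.41 CPM in O and 0.149, 0.213 and 0.411 CPM in AS. The AS values rest on 2, 3 and 6 reads, and the fitted log2 fold change of -5.16 (SE 0.94, edgeR FDR 0.013) depends on the prior count of the fit and is no bound. TRINITY_DN54371_c3_g1_i3_4dedup was at 7.08 CPM in O replicate 1 and at 37.9 to 77.0 CPM in the other O libraries, against 3.66, 1.78 and 0.822 CPM in AS (log2 fold change -4.40, SE 0.91, edgeR FDR 0.026). Both were also low in A, at 0.458 to 5.33 CPM and at 0 to 6.29 CPM (A replicate 5 was at 0), and both were high in H, with means of 22.5 ± 15.4 and 141 ± 116 CPM (SD, n = 3). Each lost its call when any AS library was left out.

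A different pattern was seen in the 4 called transcripts that also differed between AS and A, all chosen after their values were seen. TRINITY_DN54284_c0_g1_i8_4dedup, the called transcript of highest CPM in O, was at 911, 897, 1064, 1191, 985 and 967 CPM in O and at 385, 375 and 279 CPM in AS. The O libraries lay close together and the AS libraries far below them, a 2.90-fold fall (log2 fold change -1.53, SE 0.20, edgeR FDR 0.00132). In A it stayed at 792 to 1387 CPM and in H at 870 to 1357 CPM, and the AS to A difference was -1.57 (SE 0.21, FDR 0.0111). TRINITY_DN46495_c0_g1_i2_4dedup was at 52.8 to 72.2 CPM in O, 24.1 to 33.7 CPM in AS and 54.2 to 82.9 CPM in A, with an AS to A difference of -1.22 (SE 0.17, FDR 0.0111). TRINITY_DN84521_c5_g1_i1_9dedup was at 101 to 197 CPM in O, 39.1 to 52.6 CPM in AS and 115 to 229 CPM in A, with an AS to A difference of -1.72 (SE 0.28, FDR 0.032). TRINITY_DN89219_c0_g1_i4_9dedup was at 8.04 to 18.1 CPM in O, 3.91 to 4.78 CPM in AS and 9.16 to 22.0 CPM in A, with an AS to A difference of -1.93 (SE 0.31, FDR 0.032). In all 4 the AS libraries were the lowest of the 16. The call of TRINITY_DN54284_c0_g1_i8_4dedup between AS and O held in all 21 alternatives. The other 3 lost it without AS replicate 3, at an FDR of 0.0562, 0.154 and 0.0918, and in the 11 libraries, at 0.0662, 0.119 and 0.0853. The latter 2 also lost it without AS replicate 1, at 0.0762 and 0.0622.

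None of the 9 chaperone and protein folding transcripts was called, with 6 above 0, 3 below 0 and a median log2 fold change of 0.14. At an unadjusted p under 0.05 by the quasi-likelihood test, 3 were higher and 1 lower in AS. The lowest member, at -3.59, was an *hsp-3* transcript described further below. The mitochondrial chaperonin *hsp-60* came nearest. Its transcript TRINITY_DN89437_c0_g1_i3_9dedup was at 71.4, 59.1, 58.7, 56.1, 44.8 and 57.1 CPM in O and at 66.0, 107 and 107 CPM in AS. AS replicate 1 fell within the O range and the other AS libraries lay above it, and the log2 fold change of 0.69 (SE 0.16) had an edgeR FDR of 0.0534. With 1 library left out the FDR ran from 0.0201 to 0.353. The transcript was called without O replicate 1 (FDR 0.0306) or without AS replicate 1 (FDR 0.0201), and DESeq2 gave an FDR of 0.0108. The second *hsp-60* transcript was at 52.3 to 92.4 CPM in O and 89.1 to 114 CPM in AS, a log2 fold change of 0.59 (SE 0.17, FDR 0.127). The small heat shock protein *hsp-12.2* was at 360 to 860 CPM in O and 769 to 1119 CPM in AS (log2 fold change 0.78, SE 0.27, FDR 0.206). The cytosolic chaperones were nearer 0. *hsp-1*, a cytosolic Hsp70, had a log2 fold change of 0.14 (SE 0.20), and the pair of *hsp-90* transcripts had 0.13 (SE 0.17) and 0.14 (SE 0.20).

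Peroxide-handling transcripts numbered 4, of which 0 were called and 3 lay below 0. C46A5.4-like, which matches peroxidasin, a heme peroxidase of the extracellular matrix, was at 1434 to 2831 CPM in O and 909 to 1332 CPM in AS without overlap. Its log2 fold change of -0.99 (SE 0.28) had an edgeR FDR of 0.125, and it was called by DESeq2 (FDR 0.0118) and by the edgeR likelihood ratio test (FDR 0.0378). Peroxiredoxin *prdx-2*, which reduces hydrogen peroxide in the cytosol, was at 274 to 495 CPM in O and 253 to 343 CPM in AS (-0.29, SE 0.18, FDR 0.522). The catalase *ctl-2* had a log2 fold change of -0.25 (SE 0.20), with 2715 to 5749 CPM in O and 2787 to 3406 CPM in AS, and O replicate 1 was the highest library.

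No transcript of the energy metabolism lists was called, and some could be bounded. A transcript was counted as bounded where the 95% interval of its fold change lay wholly within 1.5-fold, which held for 25.8% of all tested transcripts, for 48.9% of the 1000 of highest mean, and for 63 of the 171 list members. In glycolysis and gluconeogenesis 7 of 8 were bounded and 0 were called. Enolase *enol-1* was at 1177 to 1637 CPM in O and 1346 to 1468 CPM in AS, with a log2 fold change of 0.02 (95% interval -0.27 to 0.31). The phosphoglycerate kinase *pgk-1* was at 242 to 366 CPM in O and 332 to 344 CPM in AS (0.20, SE 0.16, FDR 0.659). The transcripts of phosphoenolpyruvate carboxykinase, which leads into gluconeogenesis or malate formation, had log2 fold changes of -0.10 (interval -0.44 to 0.25) and -0.15 (interval -0.45 to 0.16).

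In the citric acid cycle 5 of 7 transcripts were bounded and 0 were called, and the list median was -0.04. Citrate synthase *cts-1*, which brings acetyl groups into the cycle, was at 688 to 871 CPM in O and 612 to 705 CPM in AS (log2 fold change -0.32, SE 0.12, edgeR FDR 0.252). One transcript of malate dehydrogenase *mdh-1* was at 855 to 1115 CPM in O and 655 to 968 CPM in AS (-0.32, SE 0.15, FDR 0.348). Fumarase *fum-1* had -0.20 (SE 0.12), and the succinate-CoA ligase subunit *sucl-2* had -0.04 (interval -0.31 to 0.22). All 3 transcripts of the propionate route were bounded. Their log2 fold changes were 0.03 (interval -0.27 to 0.32) for *pcca-1* and 0.03 (interval -0.32 to 0.38) for *pccb-1*, subunits of propionyl-CoA carboxylase, and 0.09 (interval -0.31 to 0.50) for methylmalonyl-CoA mutase *mmcm-1*.

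Of 7 respiratory chain and ATP transcripts 0 were called, and 3 were bounded. The ATP synthase subunit *atp-1* was at 342 to 448 CPM in O and 396 to 518 CPM in AS (0.27, SE 0.16, FDR 0.507), and its partner subunit *atp-2* was at -0.06 (interval -0.32 to 0.20). The mitochondrial ADP/ATP carriers *ant-1.1* and *ant-1.4* had log2 fold changes of -0.20 (SE 0.13, FDR 0.549) and 0.07 (interval -0.14 to 0.29). The complex I subunit *nduo-4*-like could not be bounded, since it ranged from 6373 to 19546 CPM in O. In the nucleotide kinases, 4 transcripts with 0 called, the 2 copies of nucleoside diphosphate kinase *ndk-1* had 0.42 (SE 0.29, FDR 0.591) and -0.21 (SE 0.13, FDR 0.528). The 3 globins, which bind oxygen, all lay above 0 (2 of 3 when scaled by total counts only) with 0 called. *glb-14*-like was at 245 to 523 CPM in O and 344 to 635 CPM in AS (0.46, SE 0.25, FDR 0.457), one *glb-1*-like transcript had 0.43 (SE 0.28, FDR 0.535), and the more abundant *glb-1*-like transcript had 0.03 (interval -0.36 to 0.41).

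The 3 transcripts matching enzymes of sulfide metabolism also lay above 0, with a median of 0.37 and 0 called. The rhodanese-type thiosulfate sulfurtransferase transcript TRINITY_DN89863_c1_g1_i4_9dedup was at 148, 157, 171, 156, 130 and 215 CPM in O and 248, 190 and 194 CPM in AS. O replicate 6 reached the AS range, and the log2 fold change of 0.37 (SE 0.17) had an edgeR FDR of 0.335. A thiosulfate:glutathione sulfurtransferase transcript, TRINITY_DN51130_c0_g1_i7_4dedup, was at 46.2 to 71.0 CPM in O and 58.7 to 102 CPM in AS (0.44, SE 0.21, FDR 0.367). The upper ends of their 95% intervals were 0.73 and 0.89 on the log2 scale.

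**Figure D4:**
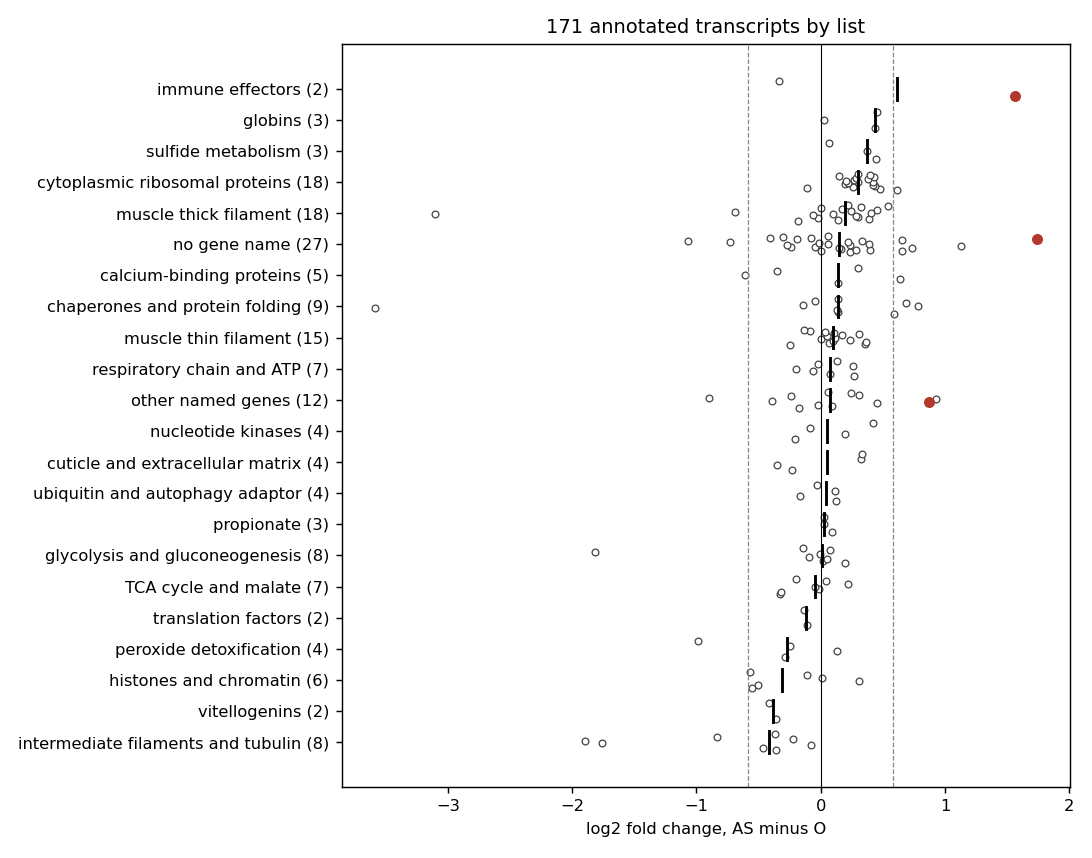
Log2 fold change between AS and O (horizontal) of the 171 tested annotated transcripts, by list, with the number of tested members in parentheses. Circles are transcripts, red where called, black bars are list medians, and dashed lines mark 1.5-fold. The medians run from -0.42 (intermediate filaments and tubulin) to 0.61 (immune effectors, 2 members).

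Of the 18 cytoplasmic ribosomal proteins 17 lay above 0, as they did with any of 4 scalings, against 48.2% of all tested transcripts. Their median was 0.30, and 0 were called. They were measured in the same libraries and are not independent of each other. The list median of single libraries had an SD of 0.37 between replicates. The median log2 fold change ran from 0.14 to 0.46 with 1 library left out and was 0.18 in the 11 libraries. The large subunit protein *rpl-27* was at 416, 593, 618, 782, 676 and 784 CPM in O and 1278, 725 and 948 CPM in AS (log2 fold change 0.61, SE 0.23, edgeR FDR 0.241). The small subunit protein *rps-3* was at 403 to 583 CPM in O and 505 to 801 CPM in AS (0.44, SE 0.16, FDR 0.246). In both, AS replicate 1 was the highest and AS replicate 2 the lowest of its group and within the O range. In none of the 18 were the groups apart. The exception to the direction was *rpl-2*, at -0.11 (interval -0.41 to 0.19). The elongation factor *eef-1A.2*, which brings tRNA to the ribosome, had -0.11 (interval -0.42 to 0.20), and the poly(A)-binding protein *pab-1* had -0.13 (interval -0.49 to 0.22). The polyubiquitin transcripts *ubq-1-1* and *ubq-1-2*, whose product tags proteins for degradation, both had 0.12 (intervals -0.17 to 0.42 and -0.17 to 0.40), and 3 of the 4 members of that list were bounded.

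Transcripts of the contractile filaments mark muscle. In the thin filament 0 of 15 were called, 8 were bounded, and the median was 0.10, or -0.017 in the 11 libraries. The calcium sensor troponin C, *pat-10-2*, was at 1166 to 1591 CPM in O and 1347 to 2131 CPM in AS (0.30, SE 0.16, FDR 0.421), and the calponin *cpn-3* had 0.35 (SE 0.23, FDR 0.546). In the thick filament 0 of 18 were called, with a median of 0.19. The main paramyosin transcript *unc-15-1* was at 5496 to 7523 CPM in O and 5855 to 7158 CPM in AS, a log2 fold change of -0.02 (interval -0.35 to 0.31). The myosin heavy chain transcript TRINITY_DN95524_c1_g2_i3_9dedup (*unc-54*) was at 257 to 546 CPM in O and 399 to 623 CPM in AS (0.54, SE 0.24, FDR 0.332).

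All 8 transcripts for intermediate filaments and tubulin lay below 0, again with any of the 4 scalings, with a median of -0.42 and 0 called. The lowest members, at -1.89 and -1.76, had means more than 2 times higher in O replicates 2, 3 and 5 than in the other O libraries. In the 11 libraries without those and A replicates 3 and 5, all 8 still lay below 0, with a median of -0.39. Intermediate filament proteins strengthen the epidermis and gut of nematodes. The *ifb-1* transcript TRINITY_DN94423_c2_g1_i3_9dedup was at 2237, 1700, 1889, 1525, 1440 and 1430 CPM in O and 995, 1138 and 733 CPM in AS. The groups did not overlap, and the log2 fold change of -0.84 (SE 0.21) had an edgeR FDR of 0.0781. It was called when scaled by total counts (FDR 0.0429), by DESeq2 (0.00528) and by the edgeR likelihood ratio test (0.018), and its FDR reached 0.43 with 1 library left out. A was at 1456 to 2227 CPM and H at 1798 to 3143 CPM, in the range of O or above. The *ifa-1-1* transcript was at 2171 to 3152 CPM in O and 1604 to 2076 CPM in AS, also without overlap (-0.47, SE 0.16, FDR 0.206). Beta-tubulin *tbb-4* had -0.08 (interval -0.47 to 0.31). Of the cuticle and extracellular matrix transcripts, which mark the epidermis, 4 were tested and 0 called. The basement membrane proteoglycan *unc-52*-like was at 440 to 792 CPM in O and 566 to 845 CPM in AS (0.33, SE 0.25, FDR 0.627). The matrix protein *ig-h3*-like was at 4936 CPM in O replicate 1 and 1840 to 3195 CPM in all other O and AS libraries (-0.35, SE 0.27, FDR 0.628).

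Histone transcripts mark dividing cells, and 4 of the 6 histone and chromatin transcripts lay below 0, with 0 called and a median of -0.31. The histone H2B transcript *his-4* was at 137 to 236 CPM in O and 114 to 139 CPM in AS (-0.51, SE 0.17, FDR 0.191), and the H2B transcript *his-41* was at 44.4 to 94.6 CPM in O and 41.4 to 47.1 CPM in AS (-0.55, SE 0.19, FDR 0.206). O replicate 4 was the highest library in both, and O replicate 1 reached the AS range in both. Vitellogenins are yolk proteins of egg-bearing animals. *vit-6* was at 12359, 4996, 2652, 9043, 5139 and 3838 CPM in O and 5143, 5703 and 3957 CPM in AS, and the AS values lay inside the wide O range (-0.36, SE 0.40, FDR 0.758). *vit-4* followed the same order of O libraries, with 2129 CPM in O replicate 1 and 452 CPM in O replicate 3 (-0.41, SE 0.42, FDR 0.725). The share of egg-bearing worms in each batch was not tested.

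Among the 5 calcium-binding proteins 0 were called. The calexcitin *cex-2*-like, a neuronal calcium sensor in other invertebrates, was at 369 to 474 CPM in O and 763, 469 and 651 CPM in AS (0.64, SE 0.24, FDR 0.255), and only AS replicate 2 overlapped O. The annexin *nex-2* was at 270 to 544 CPM in O and 389, 199 and 182 CPM in AS (-0.61, SE 0.29, FDR 0.365). A plasminogen-like transcript was at 181, 220, 207, 210, 287 and 494 CPM in O and 547, 414 and 556 CPM in AS. O replicate 6 was the only O library inside the AS range, and the log2 fold change of 0.92 (SE 0.25) had an edgeR FDR of 0.105. With 1 library left out the FDR ran from 0.00438, without O replicate 6, to 0.409. The other 8 of these fits left the transcript uncalled. It was also called by DESeq2 (FDR 0.0225), by the edgeR likelihood ratio test (FDR 0.0274) and with a block for replicate number (edgeR FDR 0.00661). Of the 27 listed transcripts that have no gene name, 1 was called, described above. The next by p, TRINITY_DN92166_c0_g1_i5_9dedup, was at 527 to 923 CPM in O and 801 to 1375 CPM in AS (0.66, SE 0.19, FDR 0.131). A transcript that matches the small heat shock protein alpha-crystallin, TRINITY_DN53753_c0_g1_i9_4dedup, singled out after its values were seen, was at 204 to 417 CPM in O and at 739, 430 and 893 CPM in AS (1.13, SE 0.34, FDR 0.152), and its AS libraries lay above all O libraries.

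Some list members, singled out after their values were seen, stood highest in the O libraries that also held the left-out transcripts. The *hsp-3* transcript TRINITY_DN64852_c0_g1_i1_9dedup, an Hsp70 of the endoplasmic reticulum, was at 6.51, 16.7 and 8.52 CPM in O replicates 2, 3 and 5 and at 0.609 to 1.38 CPM in the other O libraries. AS was at 0.299 to 0.617 CPM, and the log2 fold change of -3.59 (SE 1.26) was not called (FDR 0.216). The *unc-54* transcript TRINITY_DN78019_c0_g1_i2_9dedup was at 11.0, 31.0 and 51.2 CPM in those 3 libraries and at 1.04 to 2.38 CPM in the other O libraries, against 1.90 ± 0.664 CPM (SD, n = 3) in AS (-3.10, SE 1.37, FDR 0.32). The glycolytic *gpd-3* transcript TRINITY_DN80994_c0_g1_i1_9dedup was at 13.1, 38.8 and 46.1 CPM there and at 4.15 to 6.09 CPM in the others, against 3.96 to 6.48 CPM in AS (-1.82, SE 0.87, FDR 0.365). In the 11 other libraries the latter 2 turned to 0.28 and 0.12. Of the 171 list members, 7 had means more than 2 times higher in O replicates 2, 3 and 5 than in replicates 1, 4 and 6, as did 5.67% of all tested transcripts. The ratio was above 5 in 402 tested transcripts, of which 0 were called between AS and O. Such a spread within O works against a call, so no conclusion is drawn from this count. The *gpd-3* gene also had a transcript without the pattern, TRINITY_DN79428_c0_g2_i1_9dedup, at 372 to 688 CPM in O and 471 to 605 CPM in AS, with a 95% interval of its log2 fold change from -0.41 to 0.41. Why these libraries differ was not tested.

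**Figure D5:**
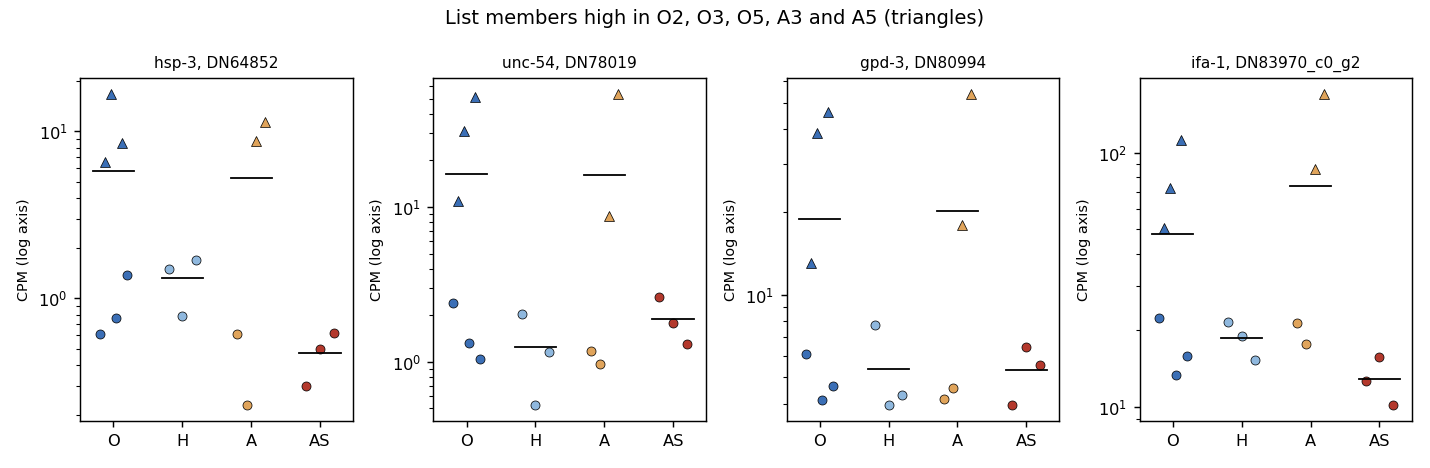
Level in CPM (log axis) of 4 list members in every library of O, H, A and AS, with triangles for O replicates 2, 3 and 5 and A replicates 3 and 5 and bars for group means. The triangles lie above the circles of the same condition, and the AS libraries lie near the O circles.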

How the data were processed

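Total RNA of whole worms was depleted of ribosomal RNA and sequenced. The authors trimmed reads (FastQC, Trimmomatic per the labels), removed reads of the symbiont and of ribosomal RNA, assembled a transcriptome with Trinity and estimated counts per transcript with Bowtie2 and RSEM 1.3.1. The deposited expected counts (RSEM estimates, not normalized) were rounded to whole numbers. Transcripts came from a de novo assembly, so near-identical copies of a gene may share reads. The assembly used reads of O, H, A and an oxygen-supersaturated incubation, and none of AS. Transcripts present mainly in AS may therefore be missing from all counts of rises, falls and detected transcripts. Groups followed the labels. The 17407 transcripts were fitted in edgeR 4.0.16 (R 4.3.3), with 1 mean per condition over all 16 libraries and TMM scaling, by the quasi-likelihood test. SE is the log2 fold change over the root of F, and 95% intervals use the test's degrees of freedom. The study's limits were kept, an FDR of at most 0.05 and at least 1.5-fold. The study names edgeR but not the test. Alternatives (normalization, filters, subsets, DESeq2 1.42.0) are given in the closing section. Members and lists were chosen with earlier results of these data known. Named transcripts were all called list members (up to 4 a list, filled to 2 by smallest p), all calls with an entry in the study's tables, and the 2 largest rises and falls without one. Other transcripts given by value were chosen after their values were seen. No 2 libraries agreed within sampling noise, the chi-square per degree of freedom within a group being 16.1 to 133. Scripts were tested on simulated data.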

Additional observations from a re-analysis of the deposited data

Results flagged for a closer look

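Of 57 groups of O values examined, 4 had a library far from the others by Dixon's 95% limit, and chance gives about 1 in 20. The *ndk-1* transcript TRINITY_DN52354_c1_g1_i3_4dedup was lowest in O replicate 5, at 82.6 CPM. TRINITY_DN54371_c3_g1_i3_4dedup was lowest in O replicate 1, at 7.08 CPM, and *ttr-35* was also lowest in O replicate 1, at 261 CPM. TRINITY_DN84521_c5_g1_i1_9dedup was highest in O replicate 6, at 197 CPM.

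In 4 transcripts called between AS and O, AS also differed from A by edgeR's quasi-likelihood test, although A, like AS, held no oxygen. The log2 differences between AS and A were -1.22 in TRINITY_DN46495_c0_g1_i2_4dedup, -1.57 in TRINITY_DN54284_c0_g1_i8_4dedup, -1.72 in TRINITY_DN84521_c5_g1_i1_9dedup and -1.93 in TRINITY_DN89219_c0_g1_i4_9dedup.

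Transcripts left out by the rule held 0.575% of the reads of O replicate 2, 1.18% of O replicate 3 and 1.28% of O replicate 5, against at most 0.00424% in the other O libraries.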

How the results depend on the processing

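All 137 called transcripts kept their direction in all 21 alternatives, which do not include the test against 1.5-fold. Of these transcripts 18 kept their call in every fit that left out 1 library, and 8 in all 21 alternatives. The count was 122 to 136 with other normalizations (total counts only gave 70 higher and 66 lower), 127 with no filter beyond 1 read, 173 at a minimum of 50 reads, 112 with the left-out transcripts kept in, 114 with the 9 libraries alone and 157 with a term for O replicates 2, 3 and 5 and A replicates 3 and 5. In the 11 libraries without those it was 17 (12 higher, 5 lower, 0 list members), and the median of transcripts with no gene name was -0.013. DESeq2 called 471 (191 higher, 280 lower, 10 list members), the edgeR likelihood ratio test 347 (180, 167 and 7), and a test against 1.5-fold 9 (7 higher, 2 lower). Leaving out 1 library gave 24 to 271 (15 to 164 higher, 9 to 107 lower, 0 to 5 list members). The cause of these differences was not tested.

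O and AS share the replicate numbers 1 to 3. Same-numbered libraries deviated together with r of -0.0021, 0.17 and 0.05, and differently numbered ones with r of -0.12 to 0.092. With so few libraries these values cannot decide whether the numbers pair the samples, and the main fit did not pair them. A replicate block gave 645 calls (394 higher, 251 lower, 17 list members), with medians of -0.033 for histones and 0.38 for the respiratory chain. Under the block *mmcm-1* was at -0.059 and *pccb-1* at -0.10. *pccb-1* was also at -0.0015 with upper quartile normalization, -0.017 with total counts and -0.049 with the library term. Without 1 library *pccb-1* ranged from -0.14 to 0.14, *mmcm-1* from -0.0010 to 0.22 and *pab-1* from -0.20 to 0.0033. The *unc-54* transcript TRINITY_DN78019_c0_g1_i2_9dedup turned to 0.28 in the 11 libraries and 0.36 with the term, and *gpd-3* TRINITY_DN80994_c0_g1_i1_9dedup to 0.12 and 0.16.

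The median number of transcripts detected in O and AS was 17275.5 and 16737 without thinning and 20357 and 19887 at a minimum of 1 read. With the left-out transcripts counted, an alternative chosen after seeing the data, it was 16853.5 in O.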
